A study of Mus musculus with 10 samples.

Results

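The genes described here are the enzymes that write DNA methylation (Dnmt1, Dnmt3a, Dnmt3b and their cofactor Dnmt3l), those that remove it (Tet1, Tet2 and Tet3) and a pair of proteins that read it (Uhrf1 and Mbd1). They were taken by symbol from the deposited gene list, which held all 9 among 22552 genes. RNA came from cerebella of E13.5 mouse embryos with a C57BL/6;129 strain background. There were 4 Ezh2 deletion libraries and 4 wild type libraries. In the deletion embryos a floxed Ezh2 allele was crossed with Pax7-Cre, so recombination was limited to cells with a history of Pax7 expression. A Rosa-YFP allele was bred along with the floxed allele to guide dissection, and the labels do not say whether the wild type embryos carried it. Whether each library was made from its own embryo is not stated. The tests therefore rest on the spread among libraries, which may be technical in part. Samples of H3K27me3 ChIP-seq were not analysed here, and DNA methylation itself was not among the measurements analysed.

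DNA methylation in mammals sits mainly on cytosines that precede a guanine. Dnmt1 copies it to the new strand after replication, guided by Uhrf1, which binds half-methylated DNA, while Dnmt3a and Dnmt3b methylate DNA that carried no mark. The Tet enzymes oxidise the methyl group, which opens the way to its loss. Some Mbd proteins, Mbd1 among them, bind methylated DNA and bring repressor complexes. Ezh2 places the other widespread silencing mark, H3K27me3, and the marks mostly occupy different CpG-rich regions.

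The windows around the annotated gene starts (250 bases before to 50 bases after, from RefSeq on GRCm38.p6) differed among the members in ways that the choice of genes did not use. The RefSeq table held 15 such windows for 8 of the 9 genes. The first pair of windows is shown because it held the only matches to a motif of cell cycle genes. A search on both strands for the E2F-type motif TTTNNCGC, with C or G at each N, found it in 1 of 3 windows of Dnmt1 and 1 of 2 of Uhrf1, and in none of the 10 windows of the other 6 genes. Of all 32851 windows in the table, 744 (2.26%) held it. The motif itself contains a CpG pair, and both windows with a match lie at the 92.3rd percentile of CpG count. The share among windows this rich in CpG was not counted, so 2.26% is not a matched background. Matches are in capitals below. Both windows hold 33 CpG pairs, and the Dnmt1 window holds 2 matches against 1 for Uhrf1.
Dnmt1, chr9:20952574-20952873, minus strand: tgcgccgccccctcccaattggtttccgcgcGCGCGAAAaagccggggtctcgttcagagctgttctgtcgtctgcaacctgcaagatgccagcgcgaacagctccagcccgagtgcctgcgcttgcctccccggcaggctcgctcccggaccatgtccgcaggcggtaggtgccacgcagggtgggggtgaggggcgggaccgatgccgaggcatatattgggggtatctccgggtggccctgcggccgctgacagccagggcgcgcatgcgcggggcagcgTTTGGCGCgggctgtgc
Uhrf1, chr17:56304063-56304362, plus strand: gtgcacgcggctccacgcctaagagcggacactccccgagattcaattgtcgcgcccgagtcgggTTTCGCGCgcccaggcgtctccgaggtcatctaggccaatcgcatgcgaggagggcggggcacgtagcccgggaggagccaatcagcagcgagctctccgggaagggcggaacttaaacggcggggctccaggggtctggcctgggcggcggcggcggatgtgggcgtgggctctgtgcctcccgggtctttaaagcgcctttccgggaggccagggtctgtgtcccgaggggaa

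The second pair is shown because it contrasts an abundant de novo methyltransferase with a relative listed at 0 in most libraries. CpG pairs are in capitals. The Dnmt3a window holds 46 CpG pairs and the Dnmt3l window 6, where the median over all windows of the table was 7. The other windows of Dnmt3a hold 47 and 18, those of Dnmt3l hold 4 and 3, and the single windows of Dnmt3b, Tet1, Tet3 and Tet2 hold 30, 17, 22 and 57. A match or a CpG count describes letters in these windows and is not a measured binding site or methylation level.
Dnmt3a, chr12:3806730-3807029, plus strand: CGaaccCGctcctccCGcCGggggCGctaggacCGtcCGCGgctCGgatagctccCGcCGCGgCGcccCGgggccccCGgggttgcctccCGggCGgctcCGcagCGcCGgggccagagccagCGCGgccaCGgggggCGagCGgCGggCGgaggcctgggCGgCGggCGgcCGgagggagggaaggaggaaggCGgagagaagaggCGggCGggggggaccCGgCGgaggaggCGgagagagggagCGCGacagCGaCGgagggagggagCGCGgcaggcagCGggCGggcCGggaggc
Dnmt3l, chr10:78042037-78042336, plus strand: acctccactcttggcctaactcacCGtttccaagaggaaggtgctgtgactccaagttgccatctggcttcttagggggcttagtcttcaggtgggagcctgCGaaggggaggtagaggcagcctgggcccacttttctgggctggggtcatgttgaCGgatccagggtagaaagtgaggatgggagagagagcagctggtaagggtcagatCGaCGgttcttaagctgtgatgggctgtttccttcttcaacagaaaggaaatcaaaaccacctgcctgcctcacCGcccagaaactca

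**Figure D1:**
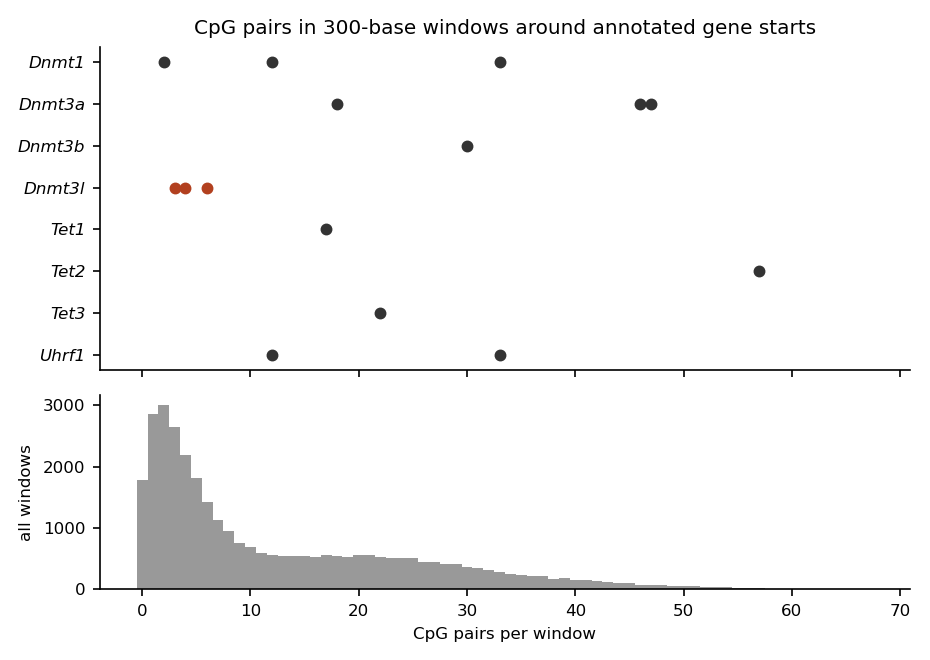
CpG pairs in each 300-base window around annotated gene starts (x axis) for 8 members (upper panel, 1 point per window) and the number of all 32851 windows with each CpG count (lower panel). The 3 windows of Dnmt3l (red) hold 3 to 6 CpG pairs, near the median of 7, while Dnmt3a reaches 47 and Tet2 57.

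RNA was given as RPKM, a read count divided by gene length and by library size, which allows levels of different genes to be compared. Total read numbers are unknown, but the steps of single reads in low genes gave depths relative to wild type 1 of 1.25 to 2.11 in the deletion libraries and 1 to 1.35 in wild type. Ezh2 RNA was 53.8, 48.7, 51.1 and 64.4 RPKM in deletion libraries 1 to 4, and 73.6, 84.7, 78.2 and 78.2 RPKM in wild type 1 to 4. All deletion libraries lay below all wild type libraries, and the log2 difference between genotypes was -0.53, with an SE of 0.0839 (limma adjusted p = 0.0074). With a term for Y-linked RNA, which leaves deletion 4 alone against wild type, the value was smaller in size, at -0.29. No call is read from that fit, since it rests on a single deletion library. All 10 cerebellar markers were detected, with En2 and Zic1 at 84.6 RPKM or more in every library. Of the 10, 1 was higher (Pax2) and 1 lower (Skor2) in Ezh2 deletion, beside 2.71% and 0.742% of all tested genes. An unadjusted limma p under 0.05 was found for 6 of the 10, beside 17.7% of all tested genes. The groups did not overlap in 4 of the 10, beside 12.4%. These markers thus differed between genotypes more often than genes at large. Markers of other cells were present at low or uneven levels. Red blood cell markers (Hbb-y the most abundant) summed to 310 to 671 RPKM in Ezh2 deletion and 367 to 443 RPKM in wild type, and vessel markers (Cldn5) to 41.2 to 63.9 RPKM in Ezh2 deletion and 49.6 to 59.6 RPKM in wild type. Meningeal markers (Col3a1) summed to 2.62 to 17.2 RPKM in Ezh2 deletion and 2.22 to 6.59 RPKM in wild type, and microglia markers (Tyrobp) to 10.7 to 16.9 RPKM in Ezh2 deletion and 9.96 to 12.7 RPKM in wild type. Choroid plexus markers (Ttr) summed to 0.881 to 161 RPKM in Ezh2 deletion and 0.377 to 5.68 RPKM in wild type. None of these 5 lists held a gene that passed. Xist RNA, which coats the silenced X, was at 54.1 to 94.5 RPKM in deletion 1 to 3 and at 0.094 RPKM or less elsewhere, while RNA of the Y-linked gene Ddx3y was at 7.92 RPKM in deletion 4, at 8.31 to 9.43 RPKM in wild type and at 0.0219 RPKM or less in deletion 1 to 3. In deletion 1 to 3, sex and genotype therefore cannot be told apart. The samples were whole tissue, in which fewer cells of a type and less RNA per cell cannot be told apart.

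The comparison asked whether the members differed between Ezh2 deletion and wild type. None passed the test. Of the 8 members that passed the level filter (a mean of at least 0.25 RPKM), 0 were higher and 0 lower at a limma adjusted p under 0.05, and 0 had an unadjusted p under 0.05. Over all 14279 tested genes, 387 (2.71%) were higher and 106 (0.742%) lower, 3.45% in all, and 17.7% had an unadjusted p under 0.05. Once red blood cell genes, Y-linked genes and Xist were left out and the libraries rescaled, 479 genes were higher and 55 lower. The 4 deletion libraries stood apart from the 4 wild type libraries in 0 of the 8 members, and in 12.4% of all tested genes (6.79% with deletion above and 5.61% with deletion below). The median log2 difference of the 8 members was 0.011, beside -0.012 over all tested genes. At such background shares a count of 0 among 8 genes does not set the members apart from other genes. The intervals below give the range of differences that each gene's libraries allow. The sign for Dnmt1, Tet2, Tet3 and Mbd1 turned under 1 or more alternatives, so no direction is read for them.

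**Figure D2:**
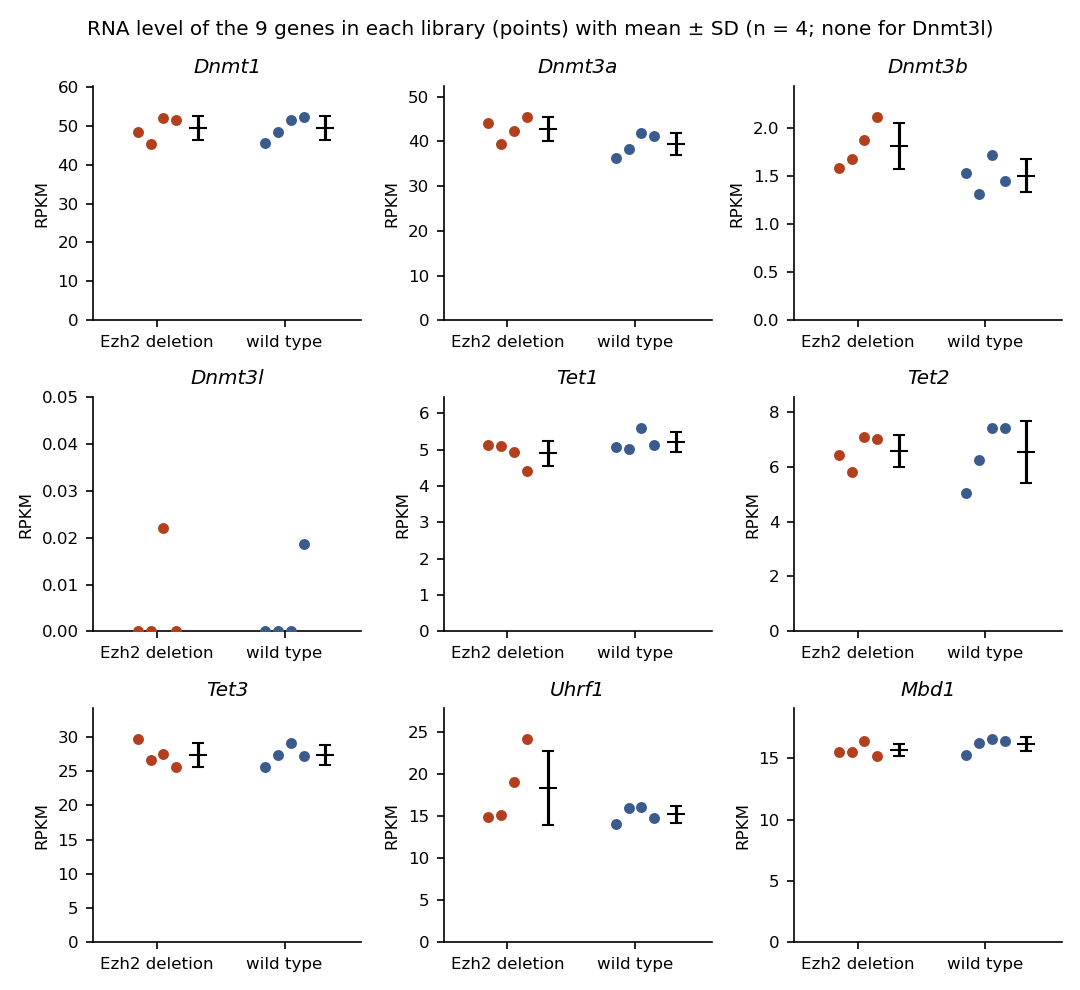
RPKM (y axis, linear, from 0) of each member in each library, with Ezh2 deletion on the left and wild type on the right of each panel; black bars give the mean ± SD of 4 libraries and are left out for Dnmt3l, which was listed at 0 in 6 of 8 libraries. The groups overlap in all 9 panels, and Uhrf1 shows the widest spread among deletion libraries, with 24.2 RPKM in deletion 4.

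The levels spanned a wide range, and 5 of the 8 pairs of neighbours in their order did not overlap. Dnmt1 led with a mean of 49.3 RPKM over the 8 libraries, which placed it at the 87.3rd percentile of tested genes. Dnmt3a followed at 41.1 RPKM, and although the ranges of both genes overlapped across libraries, Dnmt1 was above Dnmt3a in 8 of 8 libraries. Tet3 came next at 27.4 RPKM, with no overlap with either neighbour in the order. Uhrf1 at 16.8 RPKM and Mbd1 at 15.9 RPKM did not separate, since Uhrf1 was the higher of them in only 2 of 8 libraries. Tet2 at 6.55 RPKM and Tet1 at 5.05 RPKM also overlapped, with Tet2 higher in 7 of 8 libraries. Dnmt3b was low at 1.66 RPKM, at the 16.6th percentile, and did not overlap with Tet1 above it.

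Among the writers, Dnmt1, the maintenance methyltransferase, was nearly equal in both genotypes. It was at 48.4, 45.4, 52.0 and 51.4 RPKM in deletion libraries 1 to 4, against 45.4, 48.4, 51.4 and 52.3 RPKM in wild type 1 to 4. The groups covered the same range, with means of 49.3 ± 3.06 RPKM in Ezh2 deletion and 49.4 ± 3.12 RPKM in wild type (SD, n = 4 each). The log2 difference of -0.0016 (SE 0.062) had a limma adjusted p of 0.992, and its 95% confidence interval ran from 0.907-fold to 1.10-fold.

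Dnmt3a, the main de novo methyltransferase of the nervous system, was at 44.0, 39.3, 42.3 and 45.6 RPKM in deletion 1 to 4, against 36.4, 38.3, 41.8 and 41.1 RPKM in wild type 1 to 4. Of the 4 deletion libraries, 3 lay above every wild type library, but deletion 2 lay inside the wild type range. The log2 difference of 0.12 (SE 0.0624) did not pass (limma adjusted p = 0.358), and its interval ran from 0.986-fold to 1.20-fold.

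Dnmt3b, the de novo enzyme that leads in the early embryo, was at 1.59, 1.68, 1.87 and 2.12 RPKM in deletion 1 to 4, against 1.54, 1.31, 1.72 and 1.45 RPKM in wild type 1 to 4. Deletion 3 and 4 lay above all wild type libraries and deletion 1 and 2 lay inside their range. Its log2 difference of 0.23 (SE 0.121) had the smallest adjusted p among the members (limma adjusted p = 0.355), with an interval of 0.974-fold to 1.42-fold. Without deletion 4 it was 0.16 and with quantile normalization 0.099, and neither passed. With a term for Y-linked RNA the log2 difference was 0.44. Dnmt3a exceeded Dnmt3b by 23.8 ± 2.73 times in Ezh2 deletion and by 26.3 ± 2.76 times in wild type (SD, n = 4 each), so Dnmt3a carried nearly all de novo enzyme RNA in both genotypes.

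Dnmt3l, a cofactor without enzyme activity that works with the de novo enzymes in germ cells, was listed at 0 in 6 of 8 libraries. The other values were 0.0221 RPKM in deletion 3 and 0.0186 RPKM in wild type 4. It did not pass the level filter and was not tested. A listed 0 can be a failed estimate in this table, since Tuba1a, which is abundant in young neurons, was listed at 0 in every library. In the RefSeq table Dnmt3l overlaps Aire, which was at 0.0938 RPKM or less.

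**Figure D3:**
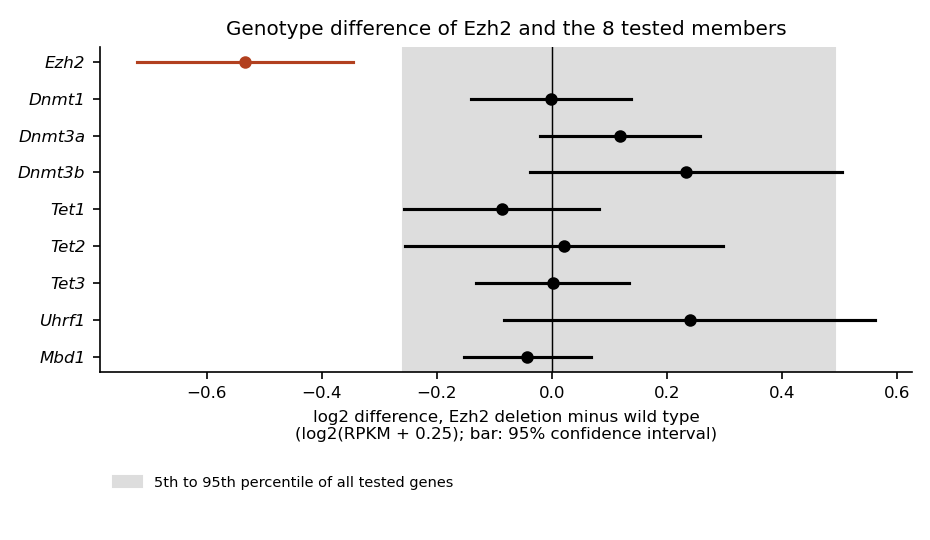
Log2 difference (x axis, Ezh2 deletion minus wild type, on log2(RPKM + 0.25)) of Ezh2 and the 8 tested members, with 95% confidence intervals from limma; the grey band runs from the 5th to the 95th percentile of all tested genes. The intervals of all 8 members include 0, while that of Ezh2 (red) runs from -0.72 to -0.35.

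The erasers showed no genotype difference that passed the test. Tet3, the most abundant of them here, was at 29.8, 26.6, 27.4 and 25.7 RPKM in deletion 1 to 4, against 25.6, 27.4, 29.2 and 27.2 RPKM in wild type 1 to 4. Its means were 27.4 ± 1.74 RPKM in Ezh2 deletion and 27.3 ± 1.46 RPKM in wild type (SD, n = 4 each), with an interval of 0.912-fold to 1.10-fold (limma adjusted p = 0.993). Tet3 made up 70.4 ± 1.28% of the summed Tet RPKM in Ezh2 deletion and 70.02 ± 1.48% in wild type (SD, n = 4 each), a difference smaller than the spread between libraries.

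Tet1 was at 5.13, 5.11, 4.93 and 4.42 RPKM in deletion 1 to 4, against 5.08, 5.03, 5.61 and 5.13 RPKM in wild type 1 to 4. Deletion 4 held the lowest value of the 8 libraries, and the others overlapped. Its log2 difference of -0.088 (SE 0.0761) did not pass (limma adjusted p = 0.595, interval 0.837-fold to 1.06-fold). It was -0.041 without deletion 4 and -0.054 without wild type 3, and it ran from -0.23 to -0.038 over all alternatives. Tet2 was at 6.44, 5.81, 7.06 and 7.00 RPKM in deletion 1 to 4, against 5.05, 6.25, 7.41 and 7.42 RPKM in wild type 1 to 4. Tet2 had the widest wild type spread of the tested members, a coefficient of variation of 17.3%, and its log2 difference of 0.021 had an interval of 0.838-fold to 1.23-fold (limma adjusted p = 0.95).

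Of the readers, Mbd1, which binds methylated CpG and recruits repressors, was the steadiest member. It was at 15.5, 15.5, 16.4 and 15.2 RPKM in deletion 1 to 4, against 15.3, 16.3, 16.6 and 16.4 RPKM in wild type 1 to 4. All 8 values lay between 15.2 and 16.6 RPKM. Its log2 difference of -0.043 (SE 0.0493) did not pass (limma adjusted p = 0.697) and had the narrowest interval of the members, 0.899-fold to 1.05-fold.

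Uhrf1, the partner that brings Dnmt1 to newly replicated DNA, was the member that varied most. It was at 14.9, 15.1, 19.11 and 24.2 RPKM in deletion 1 to 4, against 14.1, 16.0, 16.1 and 14.7 RPKM in wild type 1 to 4. Deletion 3 and 4 lay above all wild type libraries, and deletion 1 and 2 lay among them. The coefficient of variation was 23.8% in Ezh2 deletion and 6.40% in wild type. Over all libraries the log2 difference of 0.24 (SE 0.143) did not pass (limma adjusted p = 0.419, interval 0.944-fold to 1.48-fold), and without deletion 4 it was 0.098. Deletion 4 was the only deletion library with Y-linked RNA. A fit with a term for such RNA, in which the genotype difference is that of deletion 4 alone against wild type, put the log2 difference of Uhrf1 at 0.66, with an SE of 0.136 and an interval of 1.28-fold to 1.96-fold (limma adjusted p = 0.0352). It was the 1 member called in that fit, where 276 genes (1.93%) were higher and 232 (1.62%) lower. That value describes a single library whose spread is assumed to equal that of the others.

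Genes of DNA replication and mitosis were highest in the same library as Uhrf1. Deletion 4 held the highest of the 8 values in 18 of 18 S phase and mitosis genes. It also held the highest value in 30 of the 65 genes on the 5 lists of partners described below. The same was so for 3 of the 9 members and 0 of 8 neuron markers, and the share over all genes was not counted. The summed level of the 18 genes was 319, 335, 395 and 481 RPKM in deletion 1 to 4, against 296, 374, 352 and 335 RPKM in wild type 1 to 4, so deletion 3 and 4 stood above all wild type libraries here too. Mcm5, a subunit of the replicative helicase, was at 17.9, 18.1, 22.6 and 25.7 RPKM in deletion 1 to 4 and at 17.6 to 19.2 RPKM in wild type. None of the 18 passed the comparison of genotypes (Cdt1, which licenses replication origins, came nearest with a log2 difference of 0.30 and a limma adjusted p of 0.193), although 18 of 18 fitted differences were positive, with a median of 0.16. Without deletion 4 that median was 0.063, with 14 of 18 positive. Relative to the proliferation marker Mki67, Uhrf1 was at 0.88 ± 0.039 in Ezh2 deletion and 0.865 ± 0.105 in wild type (SD, n = 4 each). Dnmt1 was not highest there, since deletion 4 held 51.4 RPKM of it, below wild type 4. The part of replicating cells in the Uhrf1 level was not tested.

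**Figure D4:**
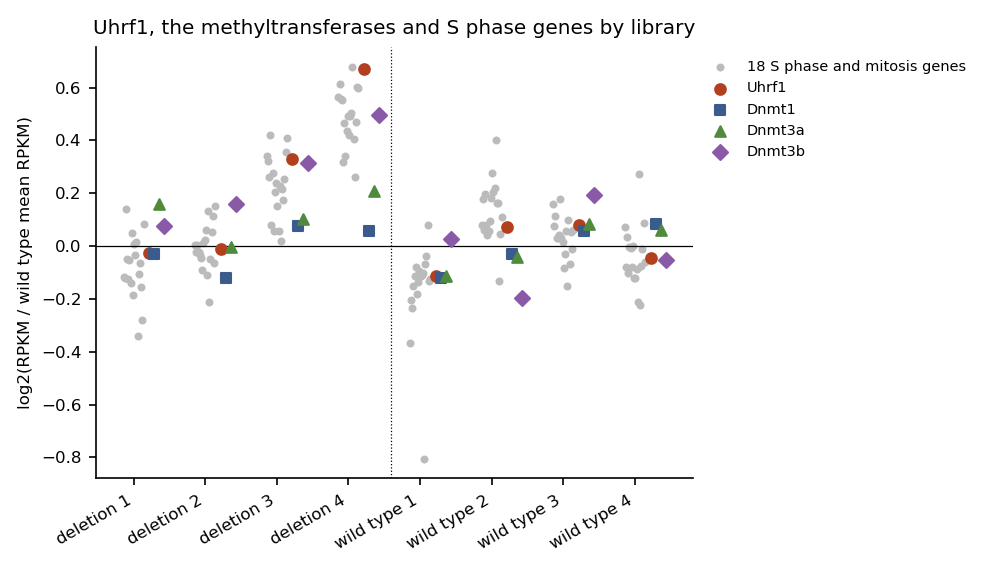
Log2 ratio of each gene's RPKM to its wild type mean (y axis) in each library (x axis), for Uhrf1, the 3 expressed methyltransferases and 18 S phase and mitosis genes (grey). In deletion 4, where all 18 S phase genes are highest, Uhrf1 lies at their upper edge, while Dnmt1 stays near 0 in every library.

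Of 9 genes listed here as midbrain markers, 6 were highest in deletion 4 and 3 in deletion 2. The share over all genes was not counted. Otx2, which is not limited to the midbrain, was at 4.14, 14.7, 15.3 and 21.1 RPKM in deletion 1 to 4, against 7.55, 6.90, 3.86 and 3.51 RPKM in wild type 1 to 4. Tal2 was at 26.6 RPKM in deletion 4 and at 9.02 RPKM or less in the other 7 libraries. Lmx1a went the other way, with its lowest value of the 8 libraries in deletion 4 (22.6 RPKM) and its highest in deletion 2 (29.0 RPKM), and Barhl1 was at 16.2 RPKM in deletion 4 and 20.9 RPKM in deletion 2. Of the 9 markers, 8 were tested, 1 was higher (Pou4f1) and 0 lower, and Foxa2 was at 0.0597 RPKM or less. An unadjusted limma p under 0.05 was found for 4 of the 8, beside 17.7% of all tested genes. The summed level ran from 167 to 230 RPKM in Ezh2 deletion and from 123 to 158 RPKM in wild type. Its largest part was Tfap2b (listed as Tcfap2b), at 84.2 to 122 RPKM in Ezh2 deletion and 66.2 to 105 RPKM in wild type. That gene did not pass (limma adjusted p = 0.339), and the sum depends largely on it. Tfap2b and Lmx1a were also present in every wild type cerebellum library, so neither their levels nor the sum shows midbrain tissue. Of 8 neuron markers 0 passed (Syt1 came nearest, limma adjusted p = 0.161), and they summed to 2813 to 3297 RPKM in Ezh2 deletion and 2947 to 3148 RPKM in wild type. The part of neurons, or of any midbrain tissue, in the Uhrf1 level was not tested.

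The partners of the members were followed in 5 lists, which held 65 genes, 64 of them tested. None passed, with 0 higher and 0 lower by limma at an adjusted p under 0.05. For the fit with a term for Y-linked RNA, only effect sizes of partners are given below. An unadjusted p under 0.05 was found for 9 of 64 (14.1%, beside 17.7% of all tested genes), and 8 of 64 (12.5%, beside 12.4%) had deletion libraries that did not overlap the wild type libraries. Both shares lay near the background. Their median log2 difference was 0.0075.

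Of 10 genes in a list of other readers of methylation and their relatives, not all of which read it, 0 were called, with a median log2 difference of -0.026. Uhrf2, a relative of Uhrf1, came nearest at 32.7, 31.7, 29.3 and 33.4 RPKM in deletion 1 to 4, against 34.5, 36.4, 34.9 and 35.1 RPKM in wild type 1 to 4. All 4 deletion libraries lay below all wild type libraries, with a log2 difference of -0.15 that did not pass (SE 0.0508, limma adjusted p = 0.162).

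Of 15 cofactors and guides, 14 were tested and 0 called, with a median log2 difference of -0.019. Zfp57, a zinc finger protein that keeps methylation at imprinted genes, came nearest of all genes on the 5 lists. It was at 76.6, 74.5, 85.1 and 76.6 RPKM in deletion 1 to 4, against 88.4, 88.1, 102 and 102 RPKM in wild type 1 to 4. The groups did not overlap, and the log2 difference of -0.28 (SE 0.0671) had a limma adjusted p of 0.056, just short of the threshold. With library weights it passed (limma adjusted p = 0.0439). Over all alternatives other than the term for Y-linked RNA, the limma adjusted p ran from 0.0405 to 0.159. Hells, a remodeller needed for methylation of repeats, and its partner Cdca7 were named after their values were seen, because they followed the pattern of Uhrf1. Cdca7 was at 13.7, 14.6, 15.5 and 21.1 RPKM in deletion 1 to 4 and at 12.6 to 13.8 RPKM in wild type, and Hells was at 12.2, 13.2, 15.4 and 17.9 RPKM in deletion 1 to 4 and at 11.3 to 13.99 RPKM in wild type. Neither passed over all libraries (limma adjusted p = 0.267 for Cdca7 and 0.484 for Hells). In the fit with a term for Y-linked RNA, which sets deletion 4 alone against wild type, the log2 difference was 0.67 for Cdca7 and 0.47 for Hells.

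Of 14 genes for repair steps of demethylation, 0 were called, with a median log2 difference of 0.072. Gadd45g, a stress-response gene linked to active demethylation, was at 57.5, 55.3, 56.8 and 81.0 RPKM in deletion 1 to 4, against 36.5, 44.9, 52.5 and 45.3 RPKM in wild type 1 to 4. All deletion libraries lay above all wild type libraries, but the log2 difference of 0.48 (SE 0.143) did not pass (limma adjusted p = 0.124), and deletion 4 again was the highest. With a term for Y-linked RNA, so for deletion 4 alone against wild type, the log2 difference of Gadd45g was 0.86. Tdg, the glycosylase that removes oxidised methylcytosine, was at 5.39 to 6.50 RPKM in Ezh2 deletion and 5.63 to 6.63 RPKM in wild type (limma adjusted p = 0.683).

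Of 15 genes that supply the methyl donor or 2-oxoglutarate, which the Tet enzymes consume, 0 were called, with a median log2 difference of 0.0077. Idh2, a mitochondrial enzyme that makes 2-oxoglutarate, was at 60.7, 65.4, 68.0 and 77.3 RPKM in deletion 1 to 4, against 52.4, 60.2, 57.6 and 55.8 RPKM in wild type 1 to 4. The groups did not overlap, yet the log2 difference of 0.26 (SE 0.075) did not pass (limma adjusted p = 0.105). For deletion 4 alone against wild type, in the fit with a term for Y-linked RNA, the log2 difference of Idh2 was 0.45. Ahcy, which clears the by-product of methylation, was listed between 0.316 and 3.24 RPKM with a spread of that size inside both genotypes, and its level is uncertain because the treatment of reads shared with near-identical copies is not given.

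Of 11 subunits of NuRD, a repressor complex that some Mbd proteins recruit, 0 were called, with a median log2 difference of 0.060. Mta3 was at 17.4, 16.4, 18.1 and 16.8 RPKM in deletion 1 to 4, against 15.4, 15.5, 15.1 and 15.6 RPKM in wild type 1 to 4. All deletion libraries were above all wild type libraries by a small margin, and the log2 difference of 0.16 (SE 0.0483) did not pass (limma adjusted p = 0.123).

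**Figure D5:**
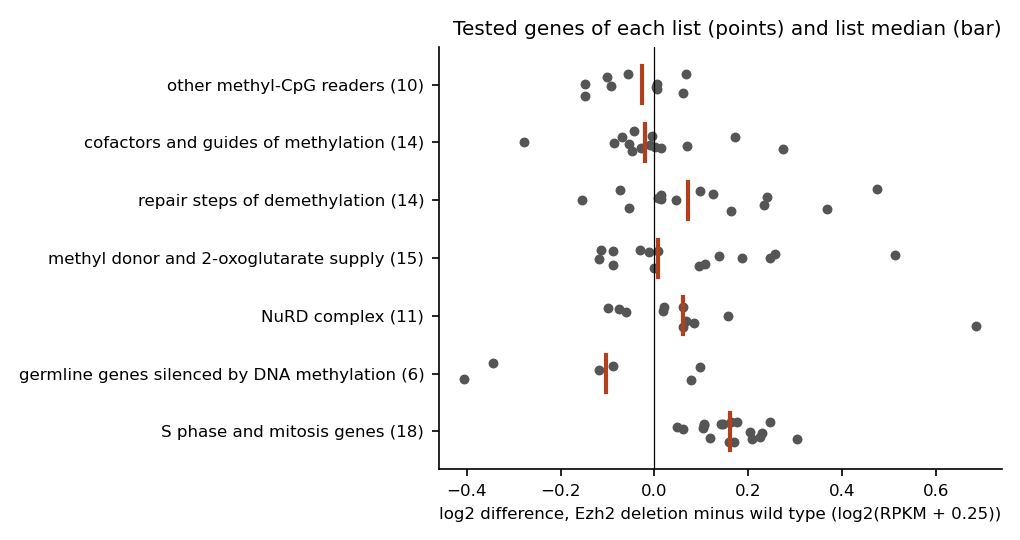
Log2 difference (x axis, Ezh2 deletion minus wild type, on log2(RPKM + 0.25)) of each tested gene in 7 lists (number tested in brackets), with the list median as a red bar. The 5 lists of methylation machinery centre near 0, between -0.026 and 0.072, and the 18 S phase and mitosis genes lie between 0.049 and 0.30.

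Germline genes are a textbook group that DNA methylation keeps silent in somatic tissue, and their levels were followed beside the members. Of 20, 6 passed the level filter and 0 were called, with a median log2 difference of -0.10. The 14 others were at 0.411 RPKM or less in every library, and 1 of them, Rpl10l, was listed at 0 throughout. Dazl, an RNA-binding protein of germ cells named after its values were seen, was at 0.00943 to 0.0355 RPKM in Ezh2 deletion and 0.0548 to 0.129 RPKM in wild type, below the filter and untested. The 1 abundant gene of the list, Tdrkh, which acts in the piRNA pathway, was at 35.6 to 38.4 RPKM in Ezh2 deletion and 39.7 to 40.6 RPKM in wild type. Its groups did not overlap, but the log2 difference of -0.12 did not pass (SE 0.0417, limma adjusted p = 0.176).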

How the data were processed

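The authors deposited RPKM values, with 1 column for each of 8 RNA-seq libraries and 22552 genes; polyadenylated RNA was sequenced, per the labels' protocols. Bowtie, TopHat, SICER, Cuffdiff and build mm9 are listed in the submitters' processing notes. The sources used here do not give the annotation, the strand setting or how multiply mapped reads were treated, so genes that overlap others or have near-identical copies are uncertain. Groups came from sample titles. Genes with a mean of at least 0.25 RPKM entered a two-sided limma test (version 3.58.1, run under R 4.3.3 with statmod 1.5.0) of log2(RPKM + 0.25). Its empirical Bayes step used a mean trend and robust variances. Adjusted p-values follow Benjamini and Hochberg over 14279 genes, with a threshold of 0.05. This scale understates changes of low genes. In simulated data the fit called 22% of genes changed 1.25-fold, 62% of those changed 1.5-fold and 90% of those changed 2-fold. Most changes of 1.25-fold were thus missed there. Names were matched to RefSeq genes of GRCm38.p6 (99.0%), with 3 list genes found under older names.

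The members and lists were chosen with earlier results of these data known. Named genes were the 9 members, Ezh2, up to 4 called genes of each list or otherwise the gene with the smallest adjusted p, the most abundant gene of each marker list, and the 3 genes most correlated with Dnmt1 and with the member of smallest adjusted p. Others are named where this is said or for their role.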

Additional observations from a re-analysis of the deposited data

Results flagged for a closer look

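Among 64 groups of 4 libraries (32 named genes in 2 genotypes), 5 held a library whose gap to the nearest other passed Dixon's critical value. Chance flags about 1 in 20 groups. For Dnmt3l these were 0.0221 RPKM in deletion 3 and 0.0186 RPKM in wild type 4, where the other 3 libraries of each genotype were listed at 0. With 3 values at 0 the gap equals the range whatever the fourth value is, so these 2 carry no weight against the chance rate. Gadd45g was at 81.0 RPKM in deletion 4, where the next highest deletion library held 57.5 RPKM. Col3a1, a collagen of the meninges, was at 5.22 RPKM in deletion 2, against 1.08 RPKM in the next. Ttr, a defining gene of the choroid plexus, was at 152 RPKM in deletion 2, against 16.2 RPKM in the next.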

How the results depend on the processing

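None of the 8 tested members passed under any alternative tried, except Uhrf1 in the fit with a term for Y-linked RNA, where 1 member was higher. In that fit Ezh2 no longer passed, with a log2 difference of -0.29 (limma adjusted p = 0.11), and there were 232 lower genes in all. The cause was not tested. Over all genes, lower genes numbered 55 with red blood cell genes, Y-linked genes and Xist left out, 181 with library weights, and 248 at a threshold of 0.1, at which 614 were higher. Leaving out 1 library at a time gave 223 to 352 higher and 40 to 100 lower genes, and 0 members in either direction. With a replicate block there were 300 higher and 53 lower genes and 0 members, and Zfp57 passed (limma adjusted p = 0.0405). Deviations of libraries with the same number correlated between 0.0034 and 0.087, and not every library correlated best with its own number. With 4 libraries in each group, such weak values neither show nor exclude that the number pairs them. Levels near 1.5 RPKM, as for Dnmt3b, may rest on few reads, but the read depth behind them is unknown.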

Other observations

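The genes whose levels followed Dnmt3b and Dnmt1 most closely over the 8 libraries were looked up among the 14278 other tested genes, by Pearson's r of log2(RPKM + 0.25). These are the highest values out of many, and libraries share their depth and tissue makeup. For Dnmt3b they were 1810062O18Rik (r = 0.961), Bfsp1 (r = 0.957) and Aprt (r = 0.946), a purine salvage enzyme. For Dnmt1 they were Tnrc6a (r = 0.98), a component of the silencing complex that microRNAs guide, Hnrnpul1 (r = 0.98), a nuclear RNA-binding protein, and Dcp1a (r = 0.976), which takes part in mRNA decapping. The same was done for Uhrf1 after its values were seen, and gave Mcm5 (r = 0.99), Lig1 (r = 0.987), the ligase that joins newly replicated DNA, and Cdca8 (r = 0.986), which acts in mitosis. Dnmt1 itself made up 51.5, 52.5, 54.1 and 51.9% of the summed RPKM of Dnmt1, Dnmt3a and Dnmt3b in deletion 1 to 4, against 54.5, 55.0, 54.1 and 55.1% in wild type 1 to 4, a share computed after the values were seen and given with no test.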
